A study of Mus musculus with 28 samples.

Results

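The response of LLC cells to TNF was described by setting 3 libraries of cells given TNF for 32 h against 3 libraries of control cells, 6 of the 28 samples of the series. LLC is an established mouse lung carcinoma cell line. Its cells were wild type, grown in culture, and received 20 ng/ml recombinant TNF or none (the protocol calls the controls untreated, their treatment label says vehicle), and none of these 6 cultures received the glucose transporter inhibitor BAY-876. Genes were kept where at least 3 of the 6 libraries reached 1 TPM (a transcript level corrected for gene length and library size), which left 12324 of 55291 genes. A gene under 1 TPM throughout 1 group passes only through the other, so such genes are kept where the groups differ. Examples that passed only through TNF libraries are C3, Traf1, Mmp9, Fas, Icam1, Ccl5, Stab1 and Lif. Ifit1, Cd38 and Tgfbi are examples that passed only through control libraries. The calls of all such genes, also where they are counted in lists, are therefore not independent of the filter. The other samples are LLC cells with BAY-876 in 2 culture experiments, and tumour cells and T cells sorted from mice. Of them, 6 libraries serve below as a second measurement of the TNF response: BAY-876 (200 nM, given 24 h ahead) with and without TNF, 3 libraries each, from the same experiment. Whether replicates were separate cultures is not in the labels. The p-values therefore cover the spread between the sampled libraries, and that spread may be technical. A single cell line, grown without other cells and read at a single time, limits what the groups model.

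TNF is a cytokine that binds the receptors TNFR1 and TNFR2. At TNFR1 an adaptor complex of TRADD, TRAF2, cIAP ubiquitin ligases and RIPK1 activates the IKK kinases, which mark the IkappaB inhibitors for destruction and free NF-kappaB dimers to enter the nucleus. NF-kappaB then drives genes of inflammation and survival together with its own inhibitors, which gives a negative feedback loop, while the same receptor can recruit caspase-8 and start cell death. In carcinoma cells TNF is known for inducing chemokines, matrix proteases and antigen presentation.

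Levels were compared on the log2(TPM + 1) scale with limma, and a gene is called higher or lower where the Benjamini-Hochberg adjusted p over all 12324 genes is under 0.05. The added 1 makes a log2 difference smaller than the true one for genes at low levels. Values with ± are mean ± SD over the 3 libraries of a group. TPM sums to 1000000 in every library, so sequencing depth is unknown and no counting error can be given. Bulk RNA cannot tell fewer cells of a kind from less RNA per cell. Replicate libraries correlated at 0.9875 to 0.9899 within the control and TNF groups, transcripts of the mitochondrial genome took 6.13 to 6.2% of control values and 5.4 to 5.76% of TNF values, and 12373 to 12410 genes reached 1 TPM in control against 11954 to 12115 in TNF libraries. These last 2 measures differed between the groups without overlap, and their part in the results was not tested.

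The cells' identity was read from marker genes. The library labels call the line lung cancer. Vim, the mesenchymal filament protein vimentin, stood at 2745 ± 26.5 TPM and Krt8, an epithelial keratin, at 323 ± 10.003 TPM in control libraries, while the epithelial markers Epcam and Krt19 were listed at 0 in all 6 libraries and Cdh1 (E-cadherin) reached at most 0.0697 TPM. These 3 defining epithelial markers were thus at or near 0 in the line. The mesenchymal genes Cdh2, Acta2 and Tagln were also below the filter, reaching at most 0.0673, 0.25 and 0.756 TPM in any of the 6 libraries. None of the 11 T and NK cell markers passed the filter, and Cd3e, Cd3d, Zap70, Nkg7 and Gzmb were listed at 0 throughout. The 7 endothelial markers also stayed below it, with a summed level of 0.372 to 1.17 TPM in control and 0.244 to 0.588 TPM in TNF libraries. Of 15 myeloid markers 2 passed, the summed level was 5.21 to 7.90 TPM in control against 3.54 to 4.35 TPM in TNF libraries, and Adgre1, Itgam, Tyrobp and S100a9 were listed at 0 in all 6. Fibroblast markers stood higher, with 3 of 7 passing the filter, namely Dpt, Pdgfra and Pdgfrb. The summed level of the 7 was 164 to 171 TPM in control and 63.4 to 64.3 TPM in TNF libraries.

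A large share of the transcriptome differed between the groups. Of the 12324 genes, 5821 were called (47.2%), 2491 higher (20.2%) and 3330 lower (27.0%) with TNF, and the libraries of the groups did not overlap for 7042 (57.1%). Most calls were small: 1649 of the higher and 1683 of the lower genes changed by less than 0.5 log2. Changes of 1 log2 or more were rarer, with 143 genes higher (1.16%) and 398 lower (3.23%), and past 2 log2 the order turned to 32 higher and 26 lower. The balance of directions depended on the scaling. With median-of-ratios scaling 3133 genes were called higher and 2805 lower, with quantile normalization 2912 and 2780, so the higher share of calls went from 42.8% to 52.8% and 51.2%. The 20.2% higher and 27.0% lower of all genes are the background against which each list's counts below stand. The median log2 difference of all genes was -0.05 as deposited and 0.01 under either scaling.

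**Figure D1:**
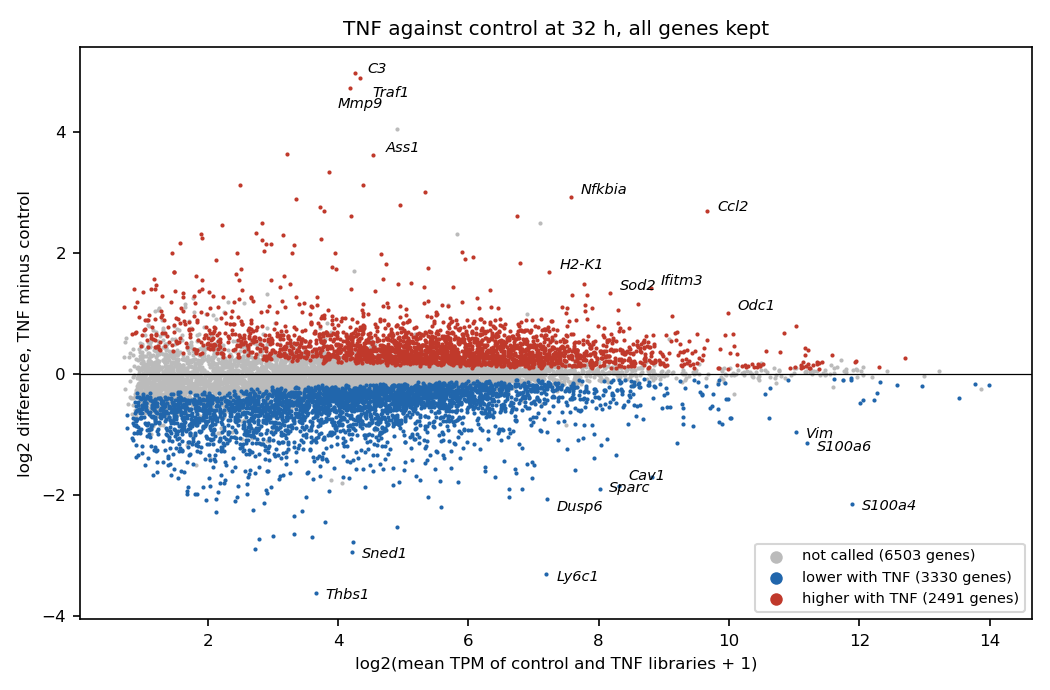
Each point is 1 of the 12324 genes kept, with the log2 of the mean TPM (plus 1) of the 6 libraries on the x axis and the log2 difference between TNF and control libraries on the y axis. Red marks the 2491 genes called higher, blue the 3330 called lower; the strongest risers such as C3 and Traf1 pass 4 log2, and the strongest faller Thbs1 reaches -3.62.

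Promoter sequence was examined because NF-kappaB dimers bind a short, nearly symmetric motif. RefSeq promoter windows (GRCm38.p6, 250 bases before to 50 after each start, 300 bases in all) were found for 108 of the 143 genes higher by 1 log2 or more, 292 of the 398 lower by as much, and 9091 of all genes kept. The 10-base NF-kappaB consensus, searched on both strands, was in 34 of 145 windows of the strong risers (23.4%), in 21 of 424 windows of the strong fallers (4.95%) and in 594 of 11623 windows of all genes (5.11%). The interferon-stimulated response element (ISRE consensus) was in 3.45% of riser windows, 5.42% of faller windows and 2.87% of all windows. The STAT motif TTCNNNGAA was in 15.2%, 8.02% and 6.67%. These shares describe letters in the windows, they do not show binding, and some genes have more than 1 window. The stretches around the NF-kappaB matches are shown for 8 genes picked from the risers with a match before the start. They are the feedback inhibitors Nfkbia, Nfkbie and Tnip1, the chemokines Cxcl1, Cxcl2 and Cxcl10, the receptor Tnfrsf9 and the subunit gene Nfkb2. No stretch can be shown for the larger risers C3, Traf1, Mmp9 and Ass1 or for Ccl2. These had no window, or no match before the start. Each reads 5′ to 3′ on the gene's strand and ends at or before the annotated start, and capitals mark bases that match the consensus on either strand, including overlapping matches.
Nfkbia, chr12:55492648-55492696, - strand: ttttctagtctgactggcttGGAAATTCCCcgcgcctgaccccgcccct
Nfkbie, chr17:45555574-45555623, + strand: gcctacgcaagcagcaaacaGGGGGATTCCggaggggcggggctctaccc
Tnip1, chr11:54962967-54963018, - strand: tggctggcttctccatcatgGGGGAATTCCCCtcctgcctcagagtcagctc
Nfkb2, chr19:46304678-46304736, + strand: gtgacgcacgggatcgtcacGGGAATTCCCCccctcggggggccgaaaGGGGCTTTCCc
Tnfrsf9, chr4:150927936-150927986, + strand: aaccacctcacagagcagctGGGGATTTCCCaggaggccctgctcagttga
Cxcl1, chr5:90891154-90891204, + strand: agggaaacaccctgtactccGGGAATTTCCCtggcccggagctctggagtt
Cxcl2, chr5:90903782-90903832, + strand: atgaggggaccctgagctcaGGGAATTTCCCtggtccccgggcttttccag
Cxcl10, chr5:92348963-92349068, - strand: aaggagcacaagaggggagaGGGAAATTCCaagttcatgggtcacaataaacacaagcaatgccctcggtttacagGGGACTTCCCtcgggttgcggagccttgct
The match lay 29 bases before the start of Nfkbia, 106 before that of Nfkbie and 97 before that of Cxcl2, counted from the first matching base. In Tnip1, Nfkb2, Cxcl1, Cxcl2 and Tnfrsf9 the capitals cover matches that overlap, and Cxcl10 and Nfkb2 hold matches apart from each other.

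Genes of NF-kappaB itself and of its inhibitors rose together. Of 22 listed genes 20 passed the filter, 13 were called higher and 1 lower, and their median log2 difference was 1.06 against -0.05 over all genes; 11 of the 13 rose by 1 log2 or more. The summed level of the list was 398 to 411 TPM in control and 1062 to 1099 TPM in TNF libraries. Nfkbia, the IkappaB-alpha inhibitor that closes the feedback loop, stood at 49.5, 42.9 and 38.8 TPM in the control and 343, 321 and 341 TPM in the TNF libraries (log2 difference 2.91, SE 0.08, limma adjusted p = 4.47e-10). Nfkbie, which encodes IkappaB-epsilon, stood at 1.901, 1.53 and 1.49 TPM in the control and 23.6, 26.1 and 26.9 TPM in the TNF libraries (log2 difference 3.33, SE 0.098, limma adjusted p = 5.13e-10). Every TNF library lay far above every control library for both, and the motif stretch shown above ends just before the Nfkbia gene (chr12:55489410-55492647 on GRCm38). Tnip1, which works with the ubiquitin editor A20, went from 22.8 ± 0.977 to 95.4 ± 10.4 TPM (log2 difference 2.02, SE 0.13, limma adjusted p = 1.75e-07). Tnfaip3, the gene of A20, was at 1.77, 1.74 and 2.08 TPM in the control and 10.1, 11.4 and 10.6 TPM in the TNF libraries, a difference of 2.03 log2, with no overlap. Nfkbib (IkappaB-beta) and Bcl3, a nuclear IkappaB protein, rose by 1.17 and 1.73 log2.

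The subunit genes differed in how far they rose. Relb, a partner of the non-canonical pathway, stood at 3.59, 4.12 and 4.95 TPM in the control and 29.2, 32.4 and 29.8 TPM in the TNF libraries (log2 difference 2.599, SE 0.12, limma adjusted p = 1.52e-08), and Nfkb2, the precursor of its partner p52, went from 25.1 ± 0.405 to 95.9 ± 1.79 TPM (log2 difference 1.89, SE 0.04, limma adjusted p = 1.07e-10). Nfkb1 (p105 and p50) went from 54.8 ± 1.87 to 118 ± 4.52 TPM and Rel from 1.46 ± 0.337 to 3.99 ± 0.191 TPM, by 1.09 and 1.03 log2. Rela, the main activating subunit, had the smallest rise of the 5, 0.79 log2, from the highest control level. Of the kinases that act above NF-kappaB, Ikbke rose by 1.26 log2 and Ikbkb by 0.43, while Chuk (0.03), Ikbkg (-0.16) and Map3k14 (0.03) were not called. Nfkbiz, another nuclear IkappaB gene, was the 1 member called lower, from 7.58 ± 0.254 to 5.702 ± 0.397 TPM (-0.36 log2), and it was not called after quantile normalization (adjusted p = 0.0960 with limma). Cyld, Tnip2 and N4bp1 were not called, at 0.15, 0.11 and -0.00, though Cyld was called higher under either other scaling (adjusted p = 0.0391 and 0.0239 with limma).

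**Figure D2:**
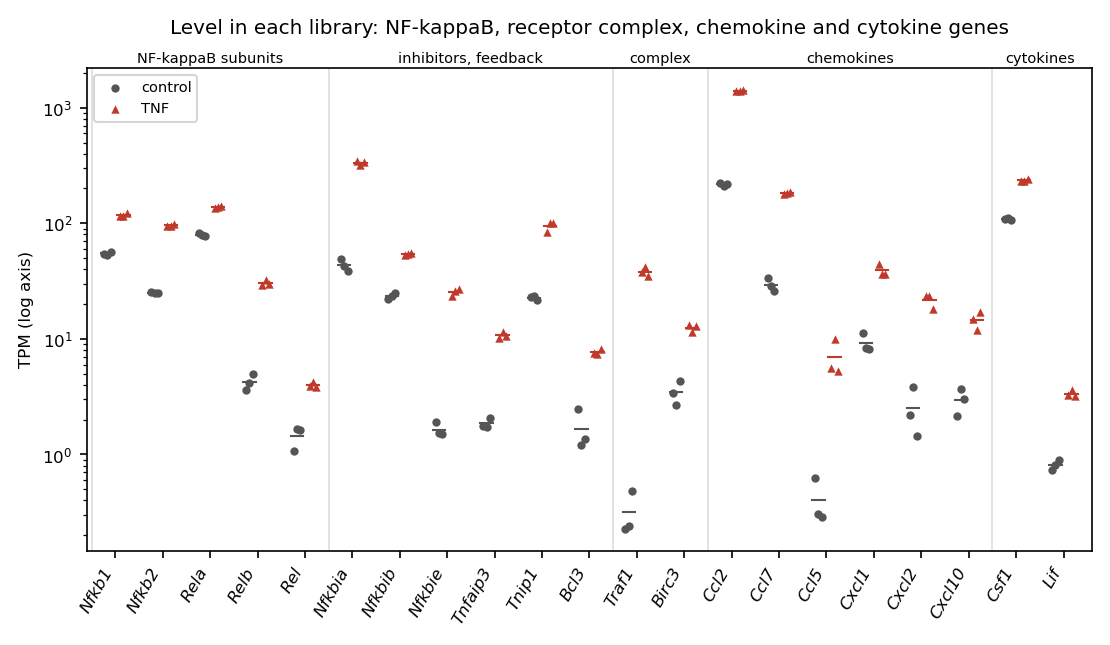
TPM on a log axis for genes of the NF-kappaB system, the receptor complex, chemokines and cytokines, with 3 control libraries (grey circles) and 3 TNF libraries (red triangles) per gene and a line at each group mean. The 21 genes were picked from those called higher, and members of these lists that were lower or not called are not shown. Their shared direction therefore follows from the choice. The steps run from Rela with the smallest to Traf1 with the largest.

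The receptor complex split. Of 21 measured members 7 were called higher and 7 lower (33.3% each), with a median of -0.03, against 20.2% and 27.0% of all genes. Traf1, an adaptor that is itself a known NF-kappaB target, stood at 0.227, 0.238 and 0.481 TPM in the control and 37.6, 41.6 and 34.8 TPM in the TNF libraries (log2 difference 4.89, SE 0.33, limma adjusted p = 3.06e-07). Birc3, the gene of cIAP2, stood at 3.399, 2.67 and 4.33 TPM in the control and 13.2, 11.4 and 13.03 TPM in the TNF libraries (log2 difference 1.61, SE 0.14, limma adjusted p = 2.34e-06), while its relative Birc2 (cIAP1) was not called (-0.23). Both genes were low in control cells and the libraries of the groups did not overlap. Traf2 rose by 0.88 log2, Traf3 by 0.66, Spata2 by 0.58 and Otulin by 0.32. The receptors themselves were lower: Tnfrsf1a (TNFR1) stood at 74.1, 76.5 and 71.5 TPM in the control and 54.04, 55.01 and 52.2 TPM in the TNF libraries (log2 difference -0.45, SE 0.04, limma adjusted p = 4.45e-06) and Tnfrsf1b (TNFR2) went from 16.8 ± 0.359 to 10.1 ± 0.466 TPM (log2 difference -0.68, SE 0.06, limma adjusted p = 4.62e-06). Tradd, Map3k7 (TAK1) and Rnf31 of the ubiquitin ligase complex were not called, at 0.09, -0.03 and 0.07 log2. Ripk1 was called at 0.19, but not in a fit of the 6 libraries alone (adjusted p = 0.0587 with limma) or when any of them but control replicate 2 was left out (up to 0.147). The genes Itch (-0.198) and Tab1 (-0.22) lost their calls under median-of-ratios scaling (adjusted p = 0.0748 and 0.0856 with limma). Itch also lost it without TNF replicate 2 or 3 or control replicate 1 or 2 (adjusted p up to 0.0888 with limma), and Tab1 without TNF replicate 3 or any control library (up to 0.111).

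Other genes of the TNF family were more often higher than lower. In the family list 15 of 35 genes passed the filter, 8 were called higher and 1 lower, with a median of 0.45. Tnfrsf9 (4-1BB), a costimulatory receptor best known from T cells, stood at 3.83, 3.25 and 2.87 TPM in the control and 36.1, 33.2 and 40.4 TPM in the TNF libraries (log2 difference 3.12, SE 0.12, limma adjusted p = 3.67e-09). Tnfsf13b (BAFF), a B cell survival ligand, went from 3.71 ± 1.08 to 8.46 ± 1.21 TPM (log2 difference 1.02, SE 0.19, limma adjusted p = 0.00111). Tnfrsf12a (the TWEAK receptor) rose by 0.57 log2, while Tnfsf12, the gene of its ligand, was called lower (-0.51). With genes under a mean of 5 TPM left out, in a fit of the 6 libraries alone, and without control replicate 2 or 3, 5 of this list were called higher. Tnf itself reached at most 0.184 TPM in the 6 libraries.

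Death genes moved both ways. Of 20 measured members of the death and caspase list 5 were called higher and 8 lower, with a median of 0.00; the lower count was 5 after quantile normalization, and the higher count 3 with a mean of at least 5 TPM. The 25% higher was near the 20.2% of all genes, and the 40% lower was above the 27.0% of all genes. Fas, the death receptor, was nearly silent in control cells and stood at 0, 0.305 and 0.195 TPM in the control and 8.99, 10.3 and 8.19 TPM in the TNF libraries (log2 difference 3.12, SE 0.16, limma adjusted p = 3.16e-08). Casp4, the inflammatory caspase called caspase-11 in mice, went from 2.199 ± 0.503 to 7.34 ± 1.15 TPM and Bid, a link from caspase-8 to mitochondria, from 8.31 ± 1.27 to 17.3 ± 0.987 TPM. Casp8 fell by 0.33 log2 from 47.4 ± 3.197 to 37.6 ± 1.42 TPM, and Cflar, which encodes the caspase-8 inhibitor cFLIP, fell by 0.51 from 31.3 ± 0.303 to 21.8 ± 1.39 TPM. Gsdme, a pore-forming gasdermin, fell by 0.82 log2, and Xiap by 0.38. Ripk3 and Zbp1, of the necroptosis pathway, did not pass the filter, and Mlkl was not called (0.07) except with median-of-ratios scaling (adjusted p = 0.0373 with limma). In the Bcl2 family 5 of 12 measured genes were called higher (41.7%) and 4 lower (33.3%), against 20.2% and 27.0% of all genes. Among those higher were the death-promoting members Bbc3 (PUMA, 0.700 log2), Bak1 (0.43) and Bax (0.28). Among those lower were the survival genes Bcl2, from 16.5 ± 0.701 to 7.48 ± 0.309 TPM (-1.04 log2), and Bcl2l1, the gene of Bcl-xL (-0.61). The death-promoting Bmf (-1.32) and Bad (-0.77) fell too, and the survival gene Mcl1 rose (0.23).

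Chemokines were among the strongest risers. Of 29 listed genes 9 passed the filter, 6 were called higher and 1 lower, with a median of 1.99, and the summed level of the list went from 287 to 309 TPM in control to 1678 to 1721 TPM in TNF libraries. Ccl2, which draws monocytes, stood at 225, 211 and 219 TPM in the control and 1404, 1387 and 1429 TPM in the TNF libraries (log2 difference 2.68, SE 0.06, limma adjusted p = 1.07e-10). Its gain of 1188 TPM was the largest of any gene under the naming rule. Ccl7, its neighbour in the chemokine cluster of chromosome 11 (chr11:82045712-82047525; Ccl2 lies at chr11:82035571-82037453), stood at 33.9, 28.6 and 26.04 TPM in the control and 180.3, 181 and 187 TPM in the TNF libraries (log2 difference 2.601, SE 0.09, limma adjusted p = 1.51e-09). No TNF library came near the control range for either gene.

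The neutrophil chemokines Cxcl1 and Cxcl2 started lower. Cxcl2 stood at 2.204, 3.86 and 1.44 TPM in the control and 23.7, 23.6 and 18.3 TPM in the TNF libraries, a difference of 2.76 log2, and Cxcl1 at 11.2, 8.34 and 8.19 TPM in the control and 44.3, 36.6 and 36.8 TPM in the TNF libraries, a difference of 1.98. Ccl5 and Cxcl10, which draw T cells, stood at means of 0.408 ± 0.191 and 2.95 ± 0.773 TPM in control and 6.94 ± 2.68 and 14.7 ± 2.53 TPM in TNF libraries. Ackr3, a scavenging chemokine receptor kept in this list, was lower (-1.09 log2), and Cx3cl1 (-0.204) and Ccl25 (0.06) were not called. Ccl20 and Cxcl9 were listed at 0 in all 6 libraries.

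Among cytokines and growth factors 18 of 34 genes passed the filter, 7 were called higher and 3 lower. With a mean of at least 5 TPM 3 were called higher. Csf1, the macrophage growth factor, stood at 109.6, 112 and 106 TPM in the control and 234, 234 and 242 TPM in the TNF libraries (log2 difference 1.11, SE 0.04, limma adjusted p = 2.05e-09). Hbegf, an EGF receptor ligand, went from 5.202 ± 0.306 to 23.9 ± 1.92 TPM (2.00 log2), Tgfb1 from 8.36 ± 0.299 to 18.5 ± 1.86 TPM (1.06) and Lif from 0.818 ± 0.07895 to 3.36 ± 0.198 TPM (1.26). Il23a, a subunit of interleukin-23, rose from 1.08 ± 0.0637 to 4.47 ± 0.2096 TPM. Vegfa, the main vessel growth factor, was lower, from 87.6 ± 2.15 to 61.7 ± 5.17 TPM (-0.503 log2), whereas Vegfc rose from a low level (0.93). Il6 reached at most 0.429 TPM in any library.

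Complement component C3 had the largest log2 difference among named genes. C3, the central protein of complement, stood at 0.163, 0.267 and 0.121 TPM in the control and 36.4, 36.1 and 35.5 TPM in the TNF libraries (log2 difference 4.97, SE 0.14, limma adjusted p = 5.13e-10), and Saa3, an acute phase protein, at 1.88, 2.54 and 1.02 TPM in the control and 11.2, 10.6 and 11.4 TPM in the TNF libraries (log2 difference 2.14, SE 0.203, limma adjusted p = 5.27e-06). These were the 2 called higher of 10 measured acute phase and complement genes, and 5 were called lower. Among the latter the ceruloplasmin gene Cp went from 54.04 ± 1.86 to 40.2 ± 3.01 TPM. The list median was -0.24. With any TNF library left out 1 member was called higher, and without control replicate 3 the lower count was 3.

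Antigen presentation by MHC class I rose in part. Of 25 listed genes 23 were measured, 12 were called higher and 4 lower, and the median was 0.45. H2-K1, a classical class I heavy chain, stood at 66.8, 70.1 and 76.8 TPM in the control and 233, 222 and 235 TPM in the TNF libraries (log2 difference 1.68, SE 0.08, limma adjusted p = 1.84e-08), and H2-D1, the other one, at 369.8, 366 and 374 TPM in the control and 514, 508 and 489.9 TPM in the TNF libraries (log2 difference 0.45, SE 0.04, limma adjusted p = 1.34e-06). B2m, the light chain, went from 443 ± 10.3 to 706 ± 12.02 TPM (0.67 log2). H2 genes have near-identical relatives, and no source used here says how shared reads were divided, so single H2 values are uncertain. Tapbp (tapasin), which loads peptides, stood at 135, 105 and 104 TPM in the control and 343, 327 and 295 TPM in the TNF libraries (log2 difference 1.49, SE 0.09, limma adjusted p = 1.75e-07). Tap1 and Tap2, the peptide transporter, moved little: Tap1 was not called (0.07) and Tap2 rose by 0.18 log2. Of the immunoproteasome genes Psmb10 rose by 1.43 log2 and Psmb8 by 0.93, while Psmb9 was not called (-0.07, from 7.46 ± 1.04 to 7.005 ± 0.389 TPM). The general chaperones Calr (-0.29), Canx (-0.19) and Pdia3 (-0.44) were lower, as was H2-M3 (-0.35). Canx lost its call under median-of-ratios scaling (adjusted p = 0.0800 with limma), and H2-M3 under quantile normalization (adjusted p = 0.162 with limma) and without TNF replicate 2 or control replicate 1 or 2 (up to 0.0800).

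The constitutive proteasome rose as a block of small changes. Of 28 measured subunit and activator genes 25 were called higher and 0 lower, with a median of 0.32 and a range of 0.01 to 0.50. Psmc5, an ATPase of the cap, went from 242 ± 3.22 to 343 ± 6.89 TPM (log2 difference 0.503, SE 0.03, limma adjusted p = 3.06e-07), and Psmb5, the chymotrypsin-like subunit, from 329.6 ± 3.18 to 447 ± 8.03 TPM. Over all genes 20.2% were called higher. The count of 25 was 21 after quantile normalization.

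Interferon genes went in both directions. Of 33 measured genes 10 were called higher (30.3%) and 11 lower (33.3%), with a median of -0.13. Over all genes the shares were 20.2% and 27.0%. Ifitm3, an antiviral membrane protein, stood at 246, 235 and 245 TPM in the control and 645, 649 and 649 TPM in the TNF libraries (log2 difference 1.42, SE 0.04, limma adjusted p = 7.34e-10), and the factors Irf1 and Irf5 went from 15.5 ± 1.56 to 36.1 ± 2.91 TPM and from 0.777 ± 0.392 to 3.41 ± 0.139 TPM. Bst2 (tetherin), which holds budding virus at the cell surface, rose by 0.54 log2. Among the 11 lower, Isg15, a ubiquitin-like modifier, stood at 13.2, 14.9 and 12.3 TPM in the control and 6.38, 4.66 and 3.98 TPM in the TNF libraries (log2 difference -1.28, SE 0.23, limma adjusted p = 6.89e-04), and Ifit1 at 1.64, 1.54 and 1.94 TPM in the control and 0.0331, 0.0914 and 0 TPM in the TNF libraries. Stat2 fell by 0.73 log2, Oasl1 by 1.26 and Ifit2 by 0.699. The counts are sensitive to the choice of genes and libraries: with a mean of at least 5 TPM they were 6 and 6, without TNF replicate 1 only 4 members were called higher, and without control replicate 2 they were 5 and 7.

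Among cytokine receptors and JAK-STAT genes 7 of 26 were called higher (26.9%) and 8 lower (30.8%), near the 20.2% and 27.0% of all genes. Il15ra, which presents interleukin-15 to T and NK cells, went from 18.1 ± 1.88 to 63.1 ± 4.31 TPM (log2 difference 1.75, SE 0.14, limma adjusted p = 1.39e-06), and both chains of the interferon gamma receptor rose (Ifngr1 0.52 log2, Ifngr2 0.77). Socs3, a feedback inhibitor of STAT3, stood at 28.7, 31.1 and 30.1 TPM in the control and 13.8, 12.3 and 10.5 TPM in the TNF libraries (log2 difference -1.24, SE 0.099, limma adjusted p = 1.24e-06), all TNF libraries being lower. Socs1 rose by 0.54 log2. Of innate sensors and adaptors 4 of 18 were called higher, among them Ripk2 (0.92), Cd14 (0.66) and Bcl10 (0.63), and 2 lower, Tlr4 (-0.702) and Mavs (-0.52); the higher share of 22.2% was near that of all genes and the lower share of 11.1% below it. Myd88, at 0.41 log2, lost its call with all genes entered (adjusted p = 0.0619 with limma) and without TNF replicate 1 or 3 or control replicate 1 or 2 (up to 0.111).

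Surface genes that meet T cells did not share a direction. Of 17 genes 6 were called higher (35.3%) and 8 lower (47.1%), against 20.2% and 27.0% of all genes. Vcam1, an adhesion ligand, stood at 30.2, 26.4 and 30.4 TPM in the control and 61.8, 59.8 and 57.3 TPM in the TNF libraries (log2 difference 1.02, SE 0.08, limma adjusted p = 1.45e-06). Icam1, the ligand of LFA-1, was listed at 0 in all 3 control libraries and at 1.88, 1.65 and 1.44 TPM in the TNF libraries, and a fold is not given for it. Pvr and Cd47 rose by 0.74 and 0.62 log2. The T cell inhibitors Vsir (VISTA) and Lgals9 (galectin-9) fell by 1.74 and 0.99 log2, and the NKG2D ligand genes Raet1e and Ulbp1 by 0.68 and 0.59. Cd274 (PD-L1) was low in both groups and not called, 1.83 ± 0.417 TPM in control and 1.68 ± 0.139 TPM in TNF libraries.

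Among lists with at least 9 measured genes, collagens and matrix had the lowest median. Of 26 measured collagen and matrix genes 19 were called lower, 13 of them by 1 log2 or more, and 3 higher, against 27.0% of all genes called lower. The list median was -0.95. Thbs1 (thrombospondin-1), a matrix protein that activates TGF-beta, stood at 23.4, 22.9 and 20.96 TPM in the control and 1.09, 0.857 and 0.776 TPM in the TNF libraries (log2 difference -3.62, SE 0.11, limma adjusted p = 5.13e-10), and its relative Thbs2 at 87.2, 89.7 and 86.4 TPM in the control and 25.6, 25.2 and 23.3 TPM in the TNF libraries (log2 difference -1.79, SE 0.05, limma adjusted p = 5.13e-10). Sparc, a collagen-binding matrix protein, stood at 419.7, 410.1 and 391 TPM in the control and 110.4, 109 and 104 TPM in the TNF libraries (log2 difference -1.91, SE 0.04, limma adjusted p = 1.07e-10). All TNF libraries lay far below the lowest control library for these 3 genes. Col6a1 and Col6a2, chains of collagen VI, fell by 1.64 and 2.04 log2, and another chain, Col6a3, by 1.09. Fn1 (fibronectin) stood at 297, 306 and 289.9 TPM in the control and 106, 102 and 87.5 TPM in the TNF libraries, a difference of -1.59 log2, and Col3a1 went from 805 ± 13.5 to 367 ± 30.9 TPM (-1.14). Tgfbi, a gene named for its induction by TGF-beta, went from 6.25 ± 0.241 to 0.497 ± 0.188 TPM (-2.28). Spp1 (osteopontin), the most abundant of the list, fell by 0.74 log2 from 1303 ± 31.2 to 782 ± 30.02 TPM.

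Not all matrix genes fell. Col8a1, Ccn1 and Tnc (tenascin-C) rose, by 1.197, 0.78 and 0.68 log2, and the laminin genes Lamb1 (-0.01) and Lamc1 (0.14) were not called, Lamc1 being called with median-of-ratios scaling (adjusted p = 0.00528 with limma). All 3 measured fibroblast markers of 7 fell with the matrix genes: Dpt (dermatopontin) from 113 ± 2.62 to 38.01 ± 1.08 TPM, Pdgfra from 46.1 ± 1.56 to 22.1 ± 1.12 TPM and Pdgfrb from 6.11 ± 0.428 to 2.68 ± 0.424 TPM. The summed level of the 7 markers was 164 to 171 TPM in control and 63.4 to 64.3 TPM in TNF libraries, with Thy1 and Fap listed at 0 in all 6 and Dcn and Lum at 1.24 TPM or less. The part of these markers in the matrix result was not tested.

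Proteases changed in both directions, 8 of 20 higher (40%) and 6 lower (30%), against 20.2% and 27.0% of all genes. Mmp9 (gelatinase B), a protease of basement membrane collagen, stood at 0.384, 0.237 and 0.405 TPM in the control and 36.4, 32.01 and 34.1 TPM in the TNF libraries (log2 difference 4.71, SE 0.09, limma adjusted p = 5.44e-11). It was the only metalloprotease of the list past 1 log2 upward, while Mmp19 (-1.25) and Mmp11 (-1.14) fell by more than 1, and Mmp14 (0.06) and Mmp2 (0.07) were not called, Mmp14 being called with median-of-ratios scaling (adjusted p = 0.0127 with limma). Plaur, the urokinase receptor, rose by 0.71, and Plau, urokinase itself, fell by 0.71 log2. Adam17, the protease that releases TNF and EGF receptor ligands, rose from 65.1 ± 2.77 to 97.1 ± 3.12 TPM (log2 difference 0.57, SE 0.05, limma adjusted p = 1.62e-06), and the inhibitor gene Timp2 fell by 0.63 log2 while Timp1 was not called (0.15).

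Cytoskeletal and S100 genes were among the largest losses in level. S100a4, a calcium-binding protein linked to cell motility, stood at 6195, 5951 and 6498 TPM in the control and 1319, 1418 and 1453 TPM in the TNF libraries (log2 difference -2.15, SE 0.05, limma adjusted p = 1.44e-10), and its mean fell by 4818 TPM. S100a6 stood at 3263, 3166 and 3301 TPM in the control and 1446, 1459.9 and 1481 TPM in the TNF libraries (log2 difference -1.15, SE 0.04, limma adjusted p = 2.34e-09), and Vim at 2741, 2774 and 2721 TPM in the control and 1479.6, 1397 and 1365 TPM in the TNF libraries (log2 difference -0.96, SE 0.04, limma adjusted p = 2.57e-09). In each, the 3 TNF libraries lay within a narrow band under every control library. Also among the 8 largest losses were Fth1, Ftl1, Lgals1 (galectin-1, whose mean fell by 1253 TPM) and Eef1a1, of which the ferritin genes and Eef1a1 have near-identical copies that make their values uncertain. Cav1 (caveolin-1), the scaffold of caveolae, fell by 1.86 log2 from 497 ± 44.3 to 136 ± 1.27 TPM, Krt8 by 0.99 and Snai2, a repressor of epithelial genes, by 0.99. Of the 17 measured identity genes 11 were called lower and 5 higher, the latter with smaller steps, up to Hmga2 at 0.46. Twist1 (0.18) and Zeb2 (0.33), which drive mesenchymal programs, were among the 5, but Zeb2 was not called without TNF replicate 1, control replicate 2 or control replicate 3 (adjusted p up to 0.0754 with limma), and 3 members were called higher without TNF replicate 1 or control replicate 2.

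**Figure D3:**
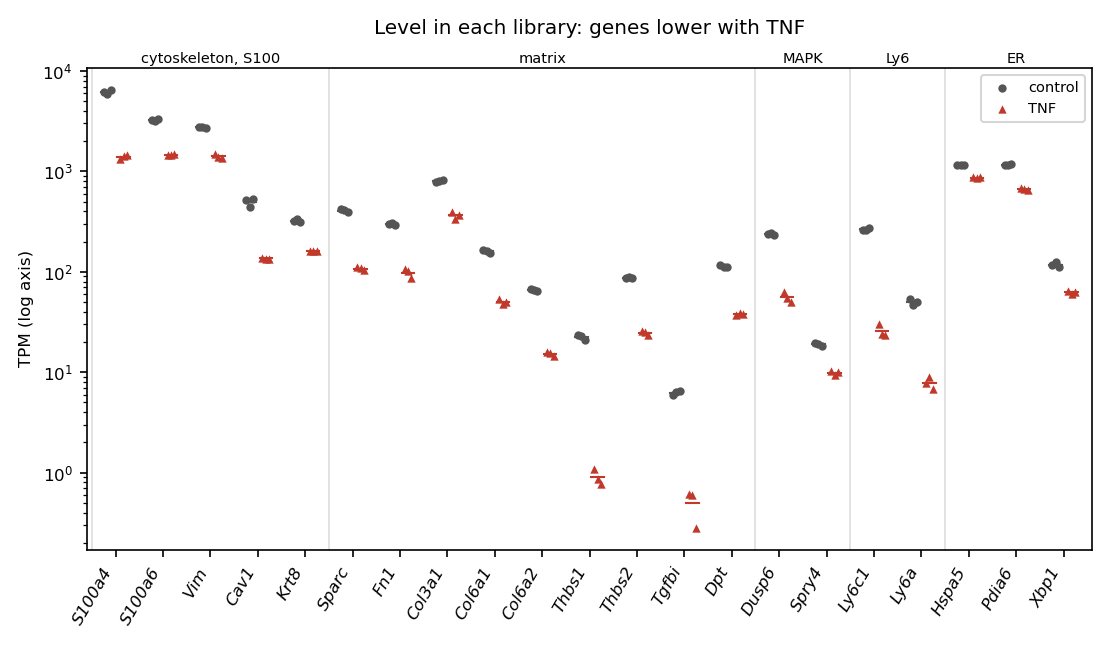
TPM on a log axis for genes that were lower with TNF, in 3 control (grey circles) and 3 TNF libraries (red triangles) each, with a line at each group mean. S100a4 fell by 2.15 log2 from the highest level, Thbs1 fell to a mean of 0.907 TPM, and the chaperone genes on the right show smaller steps.

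Ly6 surface antigens fell. All 4 measured genes of 13 were called lower, with a median of -1.73. Ly6c1 stood at 262, 260.2 and 276 TPM in the control and 30.5, 24.1 and 23.5 TPM in the TNF libraries (log2 difference -3.31, SE 0.098, limma adjusted p = 5.13e-10), and Ly6a (Sca-1), a stem cell antigen, at 53.4, 46.8 and 49.7 TPM in the control and 7.82, 8.92 and 6.78 TPM in the TNF libraries (log2 difference -2.53, SE 0.09, limma adjusted p = 2.05e-09). Ly6e fell by 0.34 log2 from 1683 ± 23.2 to 1328 ± 30.8 TPM. Ly6 genes lie in a family of close copies, so how shared reads were divided can affect single values.

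Other strong fallers belong to no list. Sned1, a matrix-associated protein, went from 31.97 ± 5.37 to 3.24 ± 0.305 TPM, and the glycosyltransferase gene Galnt15 from 11.04 ± 1.29 to 0.833 ± 0.301 TPM. Mme (neprilysin), a peptidase at the cell surface, went from 12.8 ± 1.16 to 1.19 ± 0.503 TPM, and Scara5, a ferritin receptor, from 16.2 ± 0.396 to 1.77 ± 0.49996 TPM. Cd248 (endosialin), Eya2, Tle2, C1qtnf1 and Sema3a were lower, with differences of -2.27, -2.35, -2.78, -2.695 and -2.198 log2. Strong risers outside the chemokine and NF-kappaB groups were Stab1, a scavenger receptor (from 0.387 ± 0.135 to 16.2 ± 1.59 TPM), Slpi, an inhibitor of neutrophil elastase (from 8.07 ± 2.51 to 70.3 ± 4.25 TPM), Gdpd5 (from 1.41 ± 0.0298 to 17.1 ± 3.22 TPM), Adamts7 (from 6.93 ± 1.16 to 53.1 ± 2.77 TPM) and the long noncoding RNA Wincr1 (from 2.82 ± 1.33 to 22.7 ± 2.76 TPM). For each of these genes the libraries of the groups did not overlap, as the naming rule requires.

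Transcription factors of the early response were higher at 32 h. Of 23 measured immediate-early and AP-1 genes 16 were called higher and 1 lower, with a median of 0.48. Junb stood at 27.1, 29.7 and 24.7 TPM in the control and 106, 107 and 104 TPM in the TNF libraries (log2 difference 1.92, SE 0.06, limma adjusted p = 8.28e-10), Fosl1 (Fra-1) at 115, 133 and 140.4 TPM in the control and 310.5, 324 and 329.8 TPM in the TNF libraries (log2 difference 1.31, SE 0.09, limma adjusted p = 2.86e-07) and the survival gene Ier3 at 42.6, 48.9 and 51.8 TPM in the control and 194, 163 and 159.5 TPM in the TNF libraries (log2 difference 1.83, SE 0.098, limma adjusted p = 5.15e-08). The groups were well apart for all 3. Myc went from 379 ± 18.4 to 735 ± 16.4 TPM (0.96 log2), while Jun rose by 0.27 only. Egr3 was the 1 called lower, from 5.99 ± 0.759 to 1.21 ± 0.272 TPM (-1.67 log2), and Fos, Fosb, Egr1 and Egr2 did not pass the filter.

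The feedback genes of MAP kinases split. Of 21 genes 7 were called higher (33.3%) and 8 lower (38.1%), against 20.2% and 27.0% of all genes. Dusp6, the phosphatase of ERK, stood at 238, 241 and 233 TPM in the control and 63.4, 55.4 and 50.2 TPM in the TNF libraries (log2 difference -2.06, SE 0.07, limma adjusted p = 1.79e-09), and its companions in growth factor feedback Spry1, Spry4, Spry2 and Spred1 fell by 1.098, 0.89, 0.47 and 0.65 log2. Of phosphatases that act on JNK and p38, Dusp16 and Dusp8 rose by 0.68 and 0.88, while Dusp10 fell by 0.71 log2. Also higher were Dusp14 (0.81), Dusp5 (0.62) and Gadd45a (0.57). Gadd45b, a known NF-kappaB target, was not called at 32 h (0.01).

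Defence against oxidants was led by 1 gene. Sod2, the mitochondrial superoxide dismutase, stood at 164, 162 and 163 TPM in the control and 423, 414 and 398 TPM in the TNF libraries (log2 difference 1.33, SE 0.05, limma adjusted p = 2.98e-09), while the cytosolic Sod1 fell by 0.21 log2. Of 25 genes 11 were called higher (44%) and 5 lower (20%), against 20.2% and 27.0% of all genes. The metallothionein genes Mt1 and Mt2 rose by 0.52 and 0.49 log2, and Nqo1 and Cat (catalase) fell by 0.85 and 0.69. The NRF2 targets Hmox1 (0.06), Srxn1 (0.01) and Txnrd1 (-0.01) were not called. Of 10 iron genes 4 were lower and 1, Slc11a2, was higher (0.400 log2), against 27.0% and 20.2% of all genes. The lower genes included Ftl1 from 1958 ± 38.2 to 1182 ± 15.3 TPM (-0.73 log2) and Fth1 from 4805 ± 109 to 3457 ± 71.5 TPM (-0.47). Both ferritin genes have many near-identical copies, so their values are uncertain. Tfrc, the transferrin receptor, was called lower at -0.23, but not under median-of-ratios scaling (adjusted p = 0.135 with limma) or without TNF replicate 1 or 2 or control replicate 1 or 3 (up to 0.116).

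In arginine and polyamine metabolism 8 of 14 genes were called higher and 2 lower. Ass1, argininosuccinate synthase, which makes arginine from citrulline, stood at 2.12, 1.78 and 3.97 TPM in the control and 42.6, 39.99 and 42.7 TPM in the TNF libraries (log2 difference 3.61, SE 0.16, limma adjusted p = 1.40e-08). Asl, the next enzyme, rose by 0.62 log2. Odc1, the first enzyme of polyamine synthesis, stood at 685, 673 and 662 TPM in the control and 1384, 1346 and 1306 TPM in the TNF libraries (log2 difference 1.00, SE 0.03, limma adjusted p = 5.13e-10), and Srm, spermidine synthase, went from 238 ± 7.22 to 401 ± 21.8 TPM. The gain of Odc1 was 672 TPM. Eif5a, whose protein carries the spermidine-derived residue hypusine, gained 842 TPM and was also among the 8 largest gains in level, with Hmga1 (1104 TPM), Npm1 (669.9), Mif (652), Ybx1 (655) and Hsp90ab1 (563).

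In lipid mediator metabolism Ptges, the inducible prostaglandin E synthase, stood at 51.6, 39.1 and 40.8 TPM in the control and 114, 114 and 116 TPM in the TNF libraries (log2 difference 1.38, SE 0.09, limma adjusted p = 2.58e-07). Ptgs1 (COX-1) fell by 1.101 log2 from 224 ± 13.1 to 104 ± 6.63 TPM, and Ptgs2 (COX-2) was not called (0.09). Pla2g7, which breaks down platelet-activating factor, went from 22.6 ± 0.756 to 3.35 ± 0.3101 TPM (-2.44 log2). Of 13 genes in the list 4 were higher (30.8%) and 5 lower (38.5%), against 20.2% and 27.0% of all genes. Without TNF replicate 1, TNF replicate 3 or control replicate 3, 2 were higher. In NAD metabolism Cd38, an enzyme that consumes NAD, fell by 1.98 log2 from 4.69 ± 0.683 to 0.438 ± 0.0338 TPM, and Nadk, NAD kinase, rose by 0.61.

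Glucose transporters and glycolysis genes showed mixed changes. Of 6 measured Slc2a genes 1 was called higher and 1 lower (2 lower without TNF replicate 2). These shares of 16.7% each stand against 20.2% and 27.0% of all genes. Slc2a6, a lysosomal transporter known from inflammatory macrophages, stood at 1.55, 0.452 and 0.6399 TPM in the control and 4.59, 5.01 and 7.94 TPM in the TNF libraries (log2 difference 1.88, SE 0.22, limma adjusted p = 2.63e-05), and Slc2a8 went from 9.697 ± 0.481 to 4.797 ± 0.368 TPM (-0.88 log2). Slc2a1 (GLUT1), the target of BAY-876, stood at 75.4, 80.3 and 74.6 TPM in the control and 88.97, 84.8 and 87.7 TPM in the TNF libraries (log2 difference 0.18, SE 0.099, limma adjusted p = 0.157), so it was not called. It was called with median-of-ratios scaling (0.25 log2, adjusted p = 0.0363 with limma) and in a fit of the 6 libraries alone (adjusted p = 0.0138 with limma). Slc2a3 (GLUT3) was not called (0.17) except after quantile normalization (adjusted p = 0.0426 with limma). In glycolysis 7 of 23 genes were higher (30.4%) and 8 lower (34.8%), against 20.2% and 27.0% of all genes. Slc16a3 (MCT4), a lactate exporter, rose from 409 ± 25.6 to 640.2 ± 9.004 TPM (log2 difference 0.65, SE 0.05, limma adjusted p = 1.48e-06), and Slc16a1 (MCT1) fell by 0.53 log2. Txnip, an inhibitor of glucose uptake and of thioredoxin, stood at 43.002, 43.1 and 44.2 TPM in the control and 16.2, 10.6 and 8.58 TPM in the TNF libraries (log2 difference -1.84, SE 0.19, limma adjusted p = 8.73e-06).

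Stress and secretory genes tended lower. Of 20 endoplasmic reticulum chaperone genes 15 were called lower and 0 higher, with a median of -0.48. Xbp1, a factor of the unfolded protein response, stood at 116, 125 and 112 TPM in the control and 64.5, 59.9 and 63.03 TPM in the TNF libraries (log2 difference -0.904, SE 0.05, limma adjusted p = 1.10e-07), and Pdia6, a disulphide isomerase, at 1152, 1162 and 1192 TPM in the control and 685, 668 and 659 TPM in the TNF libraries (log2 difference -0.800, SE 0.04, limma adjusted p = 1.08e-08). Hspa5 (BiP), the main chaperone, fell by 0.42 log2. In the integrated stress response 14 of 25 were called lower and 2 higher: Atf5 fell by 1.13 log2, Nupr1 by 0.93 and Chac1 by 0.698, while Atf4 was not called (0.03) except with median-of-ratios scaling (adjusted p = 0.0400 with limma), under which 4 of the list were higher. With BAY-876 the counts of this list turned round, to 2 lower and 10 higher (median 0.10), and Chac1 was not called there (-0.08 log2); the difference between the responses was called for Atf5 and Chac1 (adjusted p = 0.0263 and 0.0138 with limma) and was not tested for the list. The call for Atf5 was lost when most single libraries were left out, and that for Chac1 was kept under every alternative run. Of 18 hypoxia-inducible genes 9 were called lower and 3 higher, with Ddit4 from 93.4 ± 2.81 to 50.1 ± 4.58 TPM and Egln3 from 154 ± 4.38 to 91.1 ± 7.22 TPM among the lower and Car12 from 4.81 ± 0.395 to 11.5 ± 0.781 TPM the largest rise.

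Growth and housekeeping groups showed small or mixed changes. Of 36 cell cycle genes 10 were higher (27.8%) and 11 lower (30.6%), near the 20.2% and 27.0% of all genes. Cdkn1b (p27), an inhibitor of the cell cycle, fell by 1.03 log2 from 37.8 ± 2.9997 to 18.03 ± 0.648 TPM, and Cdkn1a (p21) rose by 0.59. Mki67, a proliferation marker, fell by 0.37 log2, and Pcna, Cdk1 and Ccnb1 were not called, at 0.05, -0.01 and 0.01, though Pcna was with median-of-ratios scaling and Cdk1 with quantile normalization (adjusted p = 0.0211 and 0.0103 with limma). The directions of the respiratory chain and ribosomal lists depended on the scaling. For the respiratory chain 13 of 36 were higher and 3 lower as deposited, 20 and 0 with median-of-ratios scaling, and 6 and 5 with quantile normalization. Of 34 ribosomal protein genes 8 were higher and 4 lower, then 12 and 0, and 8 and 5. Leaving out 1 library changed the small counts too: the respiratory chain had 1 lower without control replicate 2, and the ribosomal list had 5 higher without TNF replicate 2 and 2 lower without TNF replicate 3 or control replicate 2. Cholesterol synthesis had 7 of 23 higher and 5 lower, led by Idi1 (0.804) and Insig1 (-0.72), and 3 lower without TNF replicate 3, control replicate 1 or control replicate 2. Its shares were 30.4% higher and 21.7% lower, against 20.2% and 27.0% of all genes. With BAY-876 cholesterol synthesis had 2 higher and 12 lower (median -0.23 against 0.08).

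**Figure D4:**
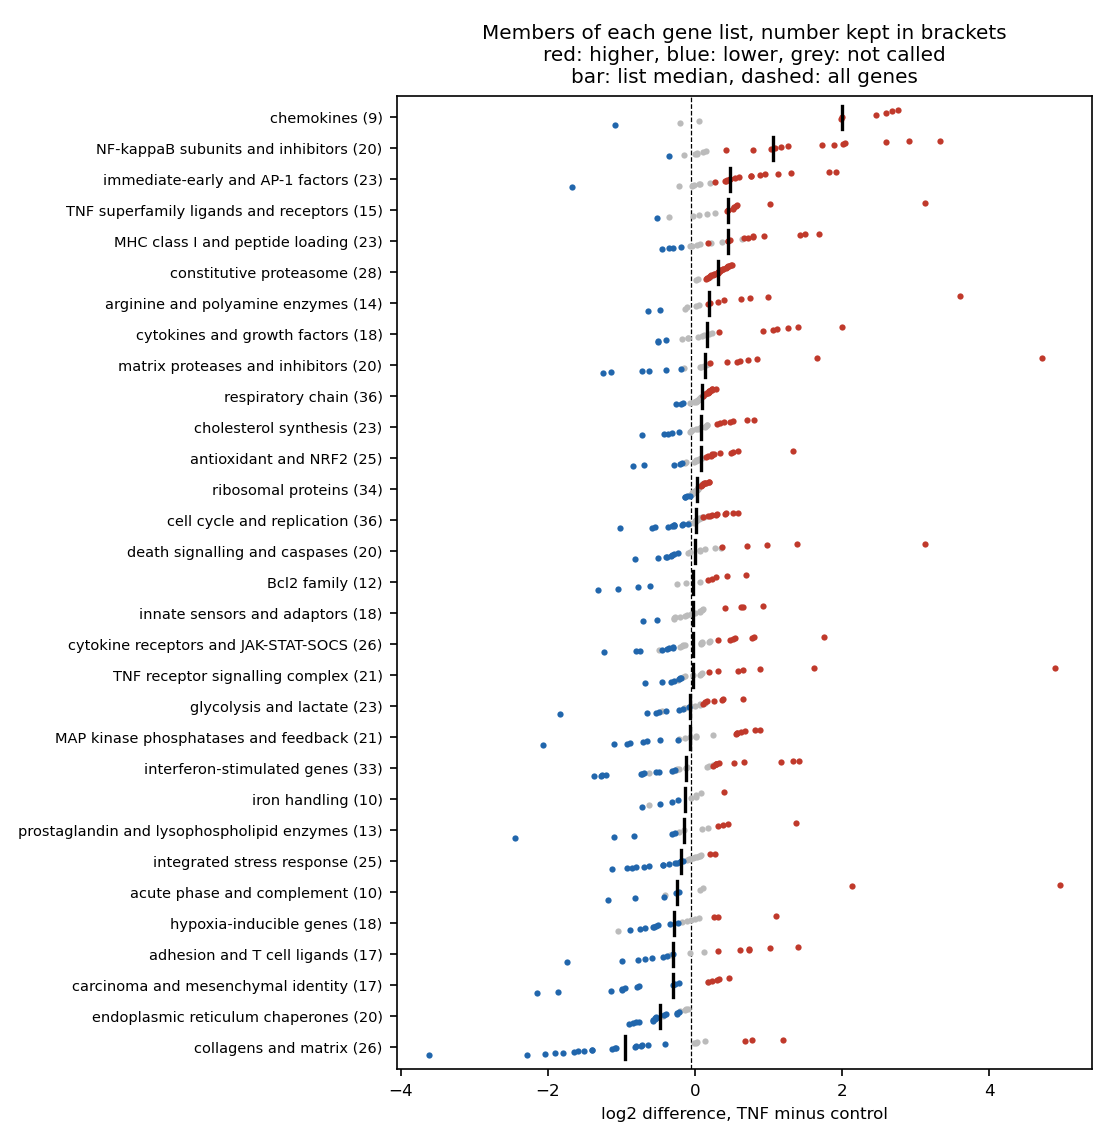
Each row is a gene list with at least 9 members kept (number in brackets), ordered by median, each dot is 1 gene's log2 difference between TNF and control (x axis), and colour shows the call. The chemokine and NF-kappaB lists lie at the top with medians of 1.99 and 1.06, the collagen and matrix list at the bottom with -0.95, and the dashed line is the median of all genes.

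The response was measured a second time in cells treated with BAY-876, in 6 libraries whose levels do not enter the differences above. All 12 libraries were fitted together and share 1 estimate of the spread, so the calls of the 2 comparisons are not independent. The characteristics of 2 of the 3 libraries with both agents give other compound numbers than their titles do, and they were grouped by title. TNF there gave 5620 called genes of 12324 (45.6%), 2468 higher (20.0%) and 3152 lower (25.6%). A fit of these 6 libraries alone called 5093 genes. Of the 143 genes that had risen by 1 log2 or more without the inhibitor, 139 moved the same way (97.2%) and 131 were called higher (91.6%), and their median difference was 1.27 against 1.38. Of the 398 that had fallen by as much, 390 moved the same way and 334 were called lower (83.9%), with a median of -1.11 against -1.26. Both sets were chosen by their size without the inhibitor, so these medians cannot show whether the response was weaker with it. Of these strong risers and fallers, 0 were called in the opposite direction. Over all called genes the shares were smaller, with 76.3% of the 2491 higher and 72.1% of the 3330 lower called the same way, and 22 and 15 called in the opposite direction. The NF-kappaB list had 13 higher and 2 lower there, and Nfkbia rose by 2.76 log2, Ccl2 by 2.29, Mmp9 by 4.65 and H2-K1 by 1.62. The rise of Ccl2 was smaller than without the inhibitor (difference -0.39, limma adjusted p = 0.0493), a call lost under most alternatives, other scaling and most single libraries left out among them. The integrated stress response and cholesterol lists differed in balance, as given above. Thbs1 fell by 2.88 log2, less than without it (difference 0.74, limma adjusted p = 0.0292, a call lost when most single libraries were left out), Ly6c1 by 3.13 and S100a4 by 2.44.

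The difference between the responses was called for 200 genes (1.62%), 94 higher (0.763%) and 106 lower (0.860%) with BAY-876. This count moved with single libraries: it was 117 without TNF replicate 2 or BAY-876 replicate 2, 122 without BAY-876 replicate 3, 130 without TNF replicate 3 and 126 without control replicate 2. The 94 higher became 56 without control replicate 1 and 61 without control replicate 3. Txnip had the largest such difference among named genes: its response was -1.84 log2 without and -0.06 with the inhibitor, from a level of 0.491 ± 0.177 TPM with BAY-876 alone and 0.431 ± 0.181 TPM with both (difference 1.78, limma adjusted p = 0.00717). C3 rose less (3.84 log2 against 4.97) and Saa3 more (3.79 against 2.14) with the inhibitor. For C3, Saa3 and Txnip the difference was not called with a pseudocount of 0.1 (adjusted p = 0.258, 0.0594 and 0.0846 with limma).

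**Figure D5:**
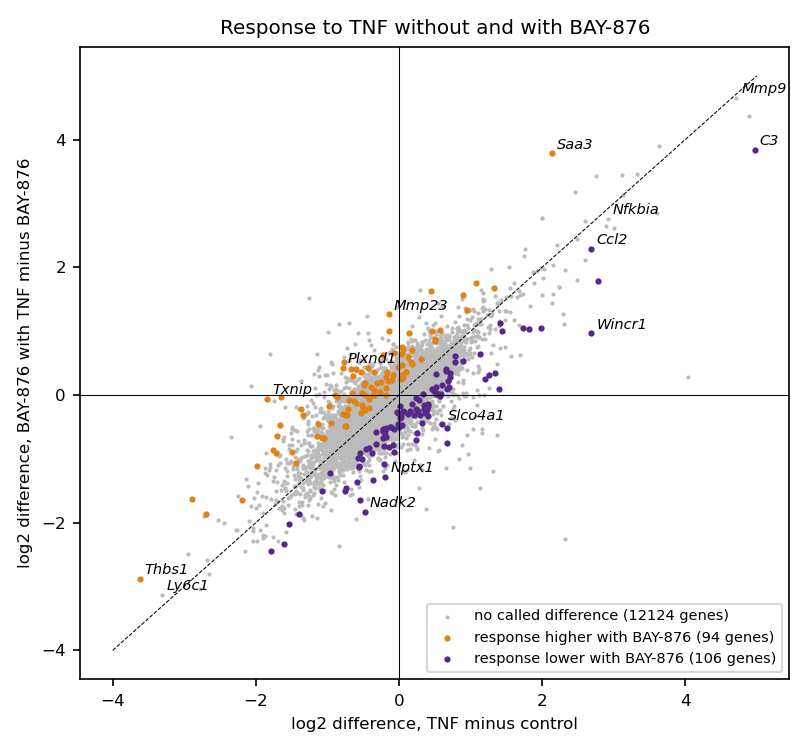
Each point is a gene, with the log2 difference between TNF and control on the x axis and that between BAY-876 with TNF and BAY-876 alone on the y axis; the dashed line marks equal responses. Orange and purple points are the 94 and 106 genes whose responses differ by the test, and Txnip sits near 0 on the y axis and at -1.84 on the x axis.

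The authors' deposited table of the same comparison holds 15534 genes, 3061 higher and 2707 lower at an adjusted p under 0.05. Of the 12284 genes shared with those kept here, 4882 were called in both the same way and 0 in opposite directions, 665 only in the authors' deposited table and 935 only here. For Nfkbia the authors' deposited table gives a log2 fold change of 3.01, for Ccl2 2.76, for Thbs1 -4.56 and for S100a4 -2.08. For genes near 0 in a group its values are larger than those on the log2(TPM + 1) scale, such as 7.69 for C3, 6.99 for Traf1, 6.72 for Mmp9 and 6.12 for Fas in the authors' deposited table. For Slc2a1 it gives 0.26 with an adjusted p of 6.95e-06.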

How the data were processed

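RNA of LLC cells was sequenced, and the authors deposited a table of TPM per gene. Tools named in the submitters' processing notes, with no role stated, are Salmon 0.13.1, STAR 2.6.1d and DESeq2 1.34.0, and the genome is mm10. Which annotation was used is not given in these sources. The table has 36 columns of values, of which 24 match no sample and were not used. The authors' deposited comparison tables hold log2 fold changes with standard errors and adjusted p-values, per the file headers, and are quoted as theirs. Libraries were grouped by title.

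TPM was taken to log2(TPM + 1), so folds of genes at low levels are understated, and scaling to a fixed sum makes every value relative to the others. limma 3.58.1 (R 4.3.3, mean-variance trend) was fitted to the 12 libraries of the 32 h experiment at once, with a mean for each of 4 groups and 8 residual degrees of freedom. The 3 contrasts were TNF against control, the same with BAY-876, and their difference, each adjusted by Benjamini-Hochberg over 12324 genes with a threshold of 0.05. On simulated data of 12324 genes for TNF against control, the fit called 76 of 100 genes given a change of 0.5 log2, 98 of 100 given 1 log2, and 14 unchanged genes. The changed genes were drawn from those above 3 in control on the log2(TPM + 1) scale, so recovery at lower levels was not tested. Far fewer genes were changed than were called in the data, and the noise was normal, so these rates may not carry over. The labels name no sequencing batch. Depth is unknown.

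The members, the 40 gene lists and the tests were chosen with earlier results of these data known, and the lists get counts and medians only. The text names the 15 highest and 15 lowest log2 differences among called genes without overlap between libraries and with 5 TPM or more in the higher group (no predicted genes, mitochondrial transcripts or receptor segments), the 8 largest gains and losses in TPM, the 6 members with the smallest p of each list, all measured members of 5 lists (NF-kappaB, receptor complex, chemokines, MHC class I, Slc2a), and 6 genes at each end of the difference between the responses. Further list members named beside them, such as Fn1, Isg15, Mlkl or Cd274, were chosen after their values were seen. Some genes that the rule picks are not reported here. Gene coordinates are those of GENCODE M21 (GRCm38), which holds 98.3% of the named symbols. Alternatives were no filter, a pseudocount of 0.1 TPM, a minimum mean of 5 TPM, quantile normalization, median-of-ratios scaling, only the libraries compared, the replicate number as a block, and each library left out.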

Additional observations from a re-analysis of the deposited data

Results flagged for a closer look

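A response to TNF that differed between cells with and without BAY-876, by the test of the difference itself, marked 47 of the genes reported here, of which the 6 at each end by size come first. Values are the response with BAY-876 minus that without, in log2, with limma's adjusted p over all genes. The difference was 1.78 for Txnip (adjusted p = 0.00717 with limma), 1.65 for Saa3 (0.0146), 1.62 for Gm15441 (0.00205), 1.41 for Mmp23 (0.0409), 1.26 for Gm48558 (0.0405) and 1.21 for Plxnd1 (0.00999). It was -1.72 for Wincr1 (adjusted p = 0.00968 with limma), -1.42 for 3110009E18Rik (0.0405), -1.35 for Nadk2 (0.00195), -1.12 for C3 (0.0176), -1.09 for Nptx1 (1.37e-04) and -1.06 for Slco4a1 (0.00195). For the other 35 the adjusted p was 0.0493 or less. The difference was 1.15 for Ifit1, 0.86 for Cd38, 0.849 for Tfrc, 0.838 for C1qtnf1, 0.742 for Thbs1, 0.676 for Atf5, 0.643 for Hmox1, 0.619 for Chac1, 0.558 for Sema3a, 0.534 for Trib3, 0.48 for Oaz2, 0.44 for Txnrd1, 0.381 for Myc, 0.355 for Slc3a2, 0.341 for Sod2, 0.258 for Slc16a1, 0.249 for Spp1, 0.246 for Fth1 and 0.216 for Hspa5. It was -1 for Adamts7, -0.95 for Col8a1, -0.946 for Ikbke, -0.653 for Thbs2, -0.595 for Tnfrsf12a, -0.531 for Il1r1, -0.499 for Msmo1, -0.485 for Fosl2, -0.477 for Dpt, -0.426 for Mt2, -0.4 for Mt1, -0.389 for Ccl2, -0.326 for Twist1, -0.291 for Ifitm3, -0.272 for Vim and -0.171 for Hmga1. Over the alternatives 21 of the 47 kept their call throughout and 26 lost it in at least 1, Ccl2, Hmga1 and Ifitm3 in most.

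The levels behind these differences vary. Txnip and Gm15441 were already at 0.491 ± 0.177 and 0.101 ± 0.174 TPM with BAY-876 alone, close to 0, against 43.5 ± 0.684 and 8.43 ± 0.442 TPM in control libraries. Nadk2, a mitochondrial NAD kinase, stood at 174 ± 13.02 TPM with BAY-876 and 48.3 ± 3.37 TPM with both agents, against 42.01 ± 1.103 TPM in control and 30.02 ± 4.67 TPM in TNF libraries. Nptx1 likewise stood at 62.3 ± 2.19 and 25.03 ± 1.58 TPM with the inhibitor, against 21.9 ± 0.0776 and 19.1 ± 0.155 TPM without. Slco4a1, an organic anion transporter, rose without the inhibitor (0.61 log2) and fell with it (-0.46). Plxnd1, a semaphorin receptor, did the reverse, at -0.78 without and 0.43 with it. Nadk2, Nptx1, Plxnd1, Slco4a1 and Wincr1 kept their calls under every alternative run. Gm15441 lost its call with a pseudocount of 0.1 TPM (adjusted p = 0.212 with limma), and Mmp23, Gm48558 and 3110009E18Rik lost theirs when most single libraries were left out.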

How the results depend on the processing

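The count of called genes stayed between 4972 (mean of at least 5 TPM) and 5938 (median-of-ratios scaling) against 5821. Leaving out 1 library gave 4995 to 5344 called, 2151 to 2271 higher and 2724 to 3163 lower. For TNF in cells with BAY-876 it gave 4865 to 5247 called. For the difference between the responses, leaving out 1 library gave 117 to 258 called genes, 49 to 137 higher and 66 to 121 lower, against 200, 94 and 106; fewer samples also lower the power of the test, and which genes were lost was not examined. Of 364 named genes, 313 were called and 37 changed a call in some setting. Only Rplp0 reversed. Rplp0, a ribosomal protein gene, at -0.13 as deposited, was called higher at 0.0938 after quantile normalization (adjusted p = 0.00236 with limma), and the cause was not tested. Of 1040 list counts over the alternatives, 44 moved by more than 1.5 times. Replicate numbers recur across groups, but same-numbered control and TNF libraries deviated from their group means with correlations of -0.05, -0.18 and -0.07. With the replicate number as a block 5783 genes were called, 2478 higher and 3305 lower. Depth is unknown, so what a low TPM can show is not bounded.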

Other observations

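Genes of ribosome assembly, noticed among the risers and listed only after their values were seen, rose almost without exception. Of 50 genes written down for this process, 50 were measured, and 49 were called higher and 0 lower with TNF. Their median log2 difference was 0.67, and 20.2% of all genes were called higher. In cells with BAY-876, from the same fit, the counts were 49 and 0, with a median of 0.58, against 20.0% of all genes called higher. Median-of-ratios scaling gave 49 higher and quantile normalization 48. Eif6, which keeps the large subunit inactive until it matures, stood at 135, 132 and 141 TPM in the control and 285, 296 and 328 TPM in the TNF libraries. Rrp9, a part of the U3 particle that processes ribosomal RNA, stood at 121, 112 and 116 TPM in the control and 244, 248 and 249 TPM in the TNF libraries, and Nhp2, of the pseudouridylation complex, at 200.1, 196 and 214 TPM in the control and 407, 435 and 430.2 TPM in the TNF libraries. All TNF libraries were above all control libraries for these 3 genes. Fbl (fibrillarin) went from 237 ± 7.07 to 355 ± 7.37 TPM, Ncl (nucleolin) from 769.5 ± 7.29 to 1196 ± 14.3 TPM, and Polr1a, the large subunit of RNA polymerase I, from 49.996 ± 1.52 to 94.9 ± 3.697 TPM. Imp3 was the member not called, at -0.04 log2. As the list was written after the data were seen, the counts are a description. This holds with and without BAY-876 and under either scaling, and none of them tests the list.

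Genes linked to growth arrest and the FOXO factors, also listed after the fact, were more mixed. Of 20 measured members (22 listed) 10 were called lower and 4 higher, with a median of -0.32. Over all genes 27.0% were called lower and 20.2% higher, so the higher count was near that of all genes. Ccng2, a cyclin of resting cells, stood at 19.003, 15.6 and 18.9 TPM in the control and 5.53, 4.54 and 3.92 TPM in the TNF libraries, and Mxd4, an antagonist of Myc, at 12.6, 11.8 and 11.9 TPM in the control and 3.46, 2.64 and 3.19 TPM in the TNF libraries. Both were lower in every TNF library. Ypel3, Pdcd4 and Irs2 fell by 1.497, 1.42 and 1.42 log2, while Foxo3 itself rose by 0.902 and Btg1 by 0.47. Cdkn1b, Btg2, Mxi1 and Txnip of this list are also in lists described above.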
